A study of Homo sapiens with 9 samples.

Results

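Intermediate filaments are the tough, rope-like polymers of the cytoskeleton, and the genes described here code for 5 keratins (KRT7, KRT8, KRT18, KRT19 and KRT80), for vimentin (VIM), alpha-internexin (INA) and nestin (NES), and for desmoplakin (DSP), the plaque protein that ties keratin filaments to desmosomes. They were chosen by name with earlier results of these data known, so counts of calls among them are descriptive. Each matched 1 row of the deposited read count table, so that 9 of 60448 rows are members. Of these, 8 passed the filter on low counts and were among the 15019 genes tested, and KRT19 did not pass it. The libraries are labelled as Huh7, a cell line of a human liver cancer, kept in DMEM. They formed 3 groups of 3: control, the OPA1 knock-down set N_28 and the OPA1 knock-down set N_30. OPA1 is a GTPase of the inner mitochondrial membrane, and its transcript was lowered by lentivirus. The same treatment text is given for the control libraries, so what virus or insert the controls received is not known from the labels, and neither is the meaning of N_28 and N_30 or whether a set is 1 clone. The labels also leave unsaid whether replicate libraries were grown as separate cultures, so every p-value here measures only how far these libraries spread, and that spread may be technical.

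Keratins are obligate heteropolymers: a type I keratin must pair with a type II keratin, and an unpaired chain is generally degraded. KRT8 (type II) and KRT18 (type I) are the classical pair of simple epithelia and the main keratins of hepatocytes, whereas KRT7 (type II) and KRT19 (type I) mark bile duct cells. KRT80 is a type II keratin that lies near cell margins and desmosomes. Vimentin, a type III protein, is typical of mesenchymal and many cultured cells. Alpha-internexin and nestin belong to type IV, the first known from neurons and the second from neural and other progenitor cells, where nestin assembles with vimentin.

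Library totals ran from 16476389 to 22863328 counts, which puts a count of 3, taken as the lower limit of a usable value, at 0.182 CPM (read counts scaled to library size) in the smallest library. The targeted transcript, OPA1, averaged 88.7 ± 5.28 CPM (SD, n = 3) in control, 55.6 ± 2.25 CPM in N_28 and 64.5 ± 1.30 CPM in N_30. Markers of the labelled liver cell type were mostly missing. Of 10 hepatocyte markers 2 reached a control mean of 1 CPM, and the summed list ran from 10.02 to 13.2 CPM in control. APOB had no read in any library, ALB had 0 to 10 reads per library, HNF4A 0 to 4 and AFP 12 to 26. Whether the cells are those named by the label was not tested. KRT7, SPP1 and SOX9 were among the biliary and progenitor markers that reached 1 CPM, while EPCAM had 6 reads or fewer in each library. Mesenchymal markers reached it in 9 of 10 cases, neural ones in 5 of 10, general epithelial ones in 3 of 10, fibroblast ones in 4 of 8, endothelial ones in 1 of 6 and leukocyte ones in 0 of 6. CDH1, the cadherin of epithelia, averaged 1.73 CPM in control.

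**Figure D1:**
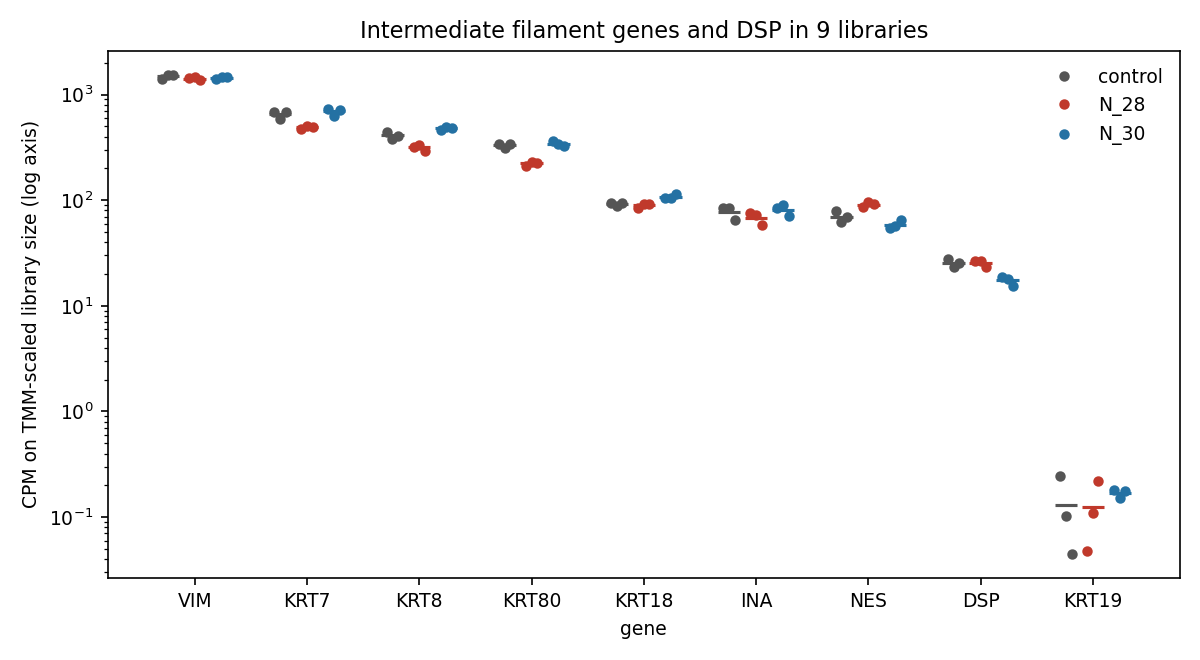
Level of each intermediate filament gene in every library (CPM on TMM-scaled library sizes, log axis), grouped as control, N_28 and N_30, with 1 point per library and a line at each group mean. KRT7, KRT8 and KRT80 lie lower in all 3 N_28 libraries than in any control library, NES lies higher there, and DSP lies lower in all 3 N_30 libraries.

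The control cells held vimentin and type II keratins together at high levels, with very little KRT19. On a per-length scale, CPM per kilobase of the gene's merged exons, the control level of VIM was 289.5 ± 12.9 (SD, n = 3), and it ranked 79 among 14918 genes. KRT7 followed at 160.2 ± 14.1 and rank 181. KRT80 stood at 76.0 ± 4.04, KRT8 at 59.7 ± 4.89 and KRT18 at 28.6 ± 1.23 CPM per kilobase. These 5 genes thus formed the upper end of the order, and KRT18, the lowest of them, was at percentile 88.7 of the genes ranked. INA reached 24.1 ± 3.52, NES 12.6 ± 1.49 and DSP 2.52 ± 0.239 CPM per kilobase. DSP was at percentile 40.1, so the desmosomal linker was at a middling level in cells whose keratin levels were high. On this scale KRT18 and INA differed by less than the sum of their SDs, and every other pair of neighbours differed by more. Both that closeness and the order of KRT80 and KRT8 depended on the length used: over the principal transcript KRT8 stood at 193.2 and KRT80 at 85.7 CPM per kilobase, and KRT18 at 58.9 ± 2.53 against 24.1 ± 3.52 for INA.

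KRT19, the usual type I marker of bile duct epithelium (ENSG00000171345, chromosome 17, 41523617 to 41528308, minus strand; all member coordinates are those of GENCODE release 29 on GRCh38), was barely detected. It had between 1 and 5 reads in each library. That corresponds to 0.244, 0.102 and 0.0448 CPM in control, 0.0482, 0.11 and 0.218 CPM in N_28 and 0.181, 0.151 and 0.178 CPM in N_30. The groups overlapped, most values lay at or below the limit of 0.182 CPM, and no fold change is given. KRT7 was thus abundant in cells in which the type I keratin that marks the same epithelium was near zero.

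Among all 55 keratin genes of the family lists, few were in use. Of 26 type II keratins, 19 had no read in any library and 3 reached a control mean of 1 CPM, namely KRT7, KRT8 and KRT80. Of 29 type I keratins, 8 had no read and 6 reached that level. The highest of the 6 were KRT10, a type I keratin best known from differentiating epidermis, at 93.4 CPM and KRT18 at 91.9 CPM. The others were KRT15 at 9.002, KRT27 at 2.53, KRT222 at 2.07 and KRT17 at 1.17 CPM. KRT7, KRT8 and KRT80 took 40.9%, 25.6% and 20.7% of all keratin reads in control, against 5.86% for KRT10 and 5.75% for KRT18. These shares are of reads and are not corrected for length.

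The 3 abundant type II keratins fell together in N_28. In that set 4 of the 8 tested members were called, 3 lower and 1 higher, where 10.2% of all tested genes were called (5.75% lower and 4.49% higher). A call means an adjusted p under 0.05, with p-values adjusted over all 15019 genes. Cell type markers also moved in N_28. Of 4 tested hepatocyte markers, those of the labelled cell type, 2 fell, TF (log2 fold change -3.09, edgeR adjusted p = 0.000609) and SERPINA1 (-2.84, adjusted p = 0.0224). Of 4 tested epithelial markers 1 fell, ESRP2 (-0.73, adjusted p = 0.000895). The summed lists were 6.10 to 7.68 CPM and 26.3 to 30.8 CPM in N_28, against 10.02 to 13.2 CPM and 33.5 to 40.7 CPM in control. Of 4 tested fibroblast markers 1 fell, FAP (-4.08, adjusted p = 0.000591), and the 1 tested endothelial marker, PECAM1, rose (0.81, adjusted p = 0.0346). The control means of these 5 genes ran from 0.729 CPM (SERPINA1) to 26.5 CPM (ESRP2). In N_28, SERPINA1 averaged 0.101 CPM and FAP 0.062 CPM, below the limit of 0.182 CPM, and TF had 4 to 19 reads per library. The sizes of the falls of SERPINA1, FAP and TF are thus uncertain. The part of the 5 genes in the keratin falls was not tested. In bulk samples such as these, fewer cells of a type and less RNA per cell cannot be told apart.

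KRT80 (ENSG00000167767, chromosome 12, 52168996 to 52192000, minus strand) showed the largest fall of the members in N_28. It measured 338, 311 and 344 CPM in control libraries, 211, 231 and 227 CPM in N_28 and 367, 338 and 328 CPM in N_30. Every N_28 library lay below every control and N_30 library, and the last 2 groups overlapped. KRT80 fell by 0.57 on the log2 scale in N_28 (SE 0.064, edgeR adjusted p = 7.02e-05), which means that its level fell by 32.6%, whereas in N_30 its log2 fold change was 0.06 (SE 0.063, adjusted p = 0.8).

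KRT7 (ENSG00000135480, chromosome 12, 52232520 to 52252186, plus strand) was the keratin with the most reads. Its levels were 691, 589 and 687 CPM in control, 475, 509.5 and 494 CPM in N_28 and 725, 634 and 721 CPM in N_30. The N_28 values again lay below all others, and control and N_30 overlapped. KRT7 fell by 0.41 on the log2 scale in N_28 (SE 0.073, edgeR adjusted p = 0.00239), so that its level fell by 24.9%, and its log2 fold change in N_30 was 0.08 (SE 0.073, adjusted p = 0.742).

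KRT8 (ENSG00000170421, chromosome 12, 52897187 to 52949954, minus strand), the type II member of the liver pair, was found at 447, 380.3 and 405 CPM in control, 323, 336 and 292 CPM in N_28 and 462, 489 and 487 CPM in N_30. All 3 groups stood apart, with N_28 lowest and N_30 highest. The fall in N_28 was called (log2 fold change -0.37, SE 0.070, edgeR adjusted p = 0.00345), and the difference between N_30 and control was not (0.22, SE 0.070, adjusted p = 0.193). Leaving out any library, or using another scaling, tool or filter, ended none of the N_28 calls of KRT7, KRT8 and KRT80 in the 14 alternatives run.

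KRT18 (ENSG00000111057, chromosome 12, 52948871 to 52952901, plus strand), the type I partner of KRT8, did not follow it in N_28. It was counted at 93.4, 87.5 and 94.97 CPM in control, 84.8, 91.4 and 92.8 CPM in N_28 and 105.5, 105.3 and 113.8 CPM in N_30. N_28 overlapped control, and all N_30 libraries lay above both. Its log2 fold change was -0.04 in N_28 (SE 0.061, edgeR adjusted p = 0.774) and 0.23 in N_30 (SE 0.060, adjusted p = 0.105). With the library number as a block, the N_30 difference was called (0.23, adjusted p = 0.029), and control and N_30 are the groups whose library numbers were read as pairing them.

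The balance of the pair was therefore set out library by library. Control libraries held 4.26 to 4.78 KRT8 reads for each KRT18 read (mean 4.46 ± 0.279, n = 3), N_28 libraries 3.14 to 3.81 (3.54 ± 0.352) and N_30 libraries 4.28 to 4.65 (4.44 ± 0.189). N_28 did not overlap the other groups. The mean log2 ratio of N_28 differed from control by -0.34 and N_30 differed from N_28 by 0.33, each with p = 0.1 in a two-sided exact permutation test, the smallest p that 3 libraries against 3 allow. For N_30 against control the difference was -0.01 (exact p = 0.9). Adding the reads of the processed pseudogenes of each gene gave -0.33 for N_28 against control.

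**Figure D2:**
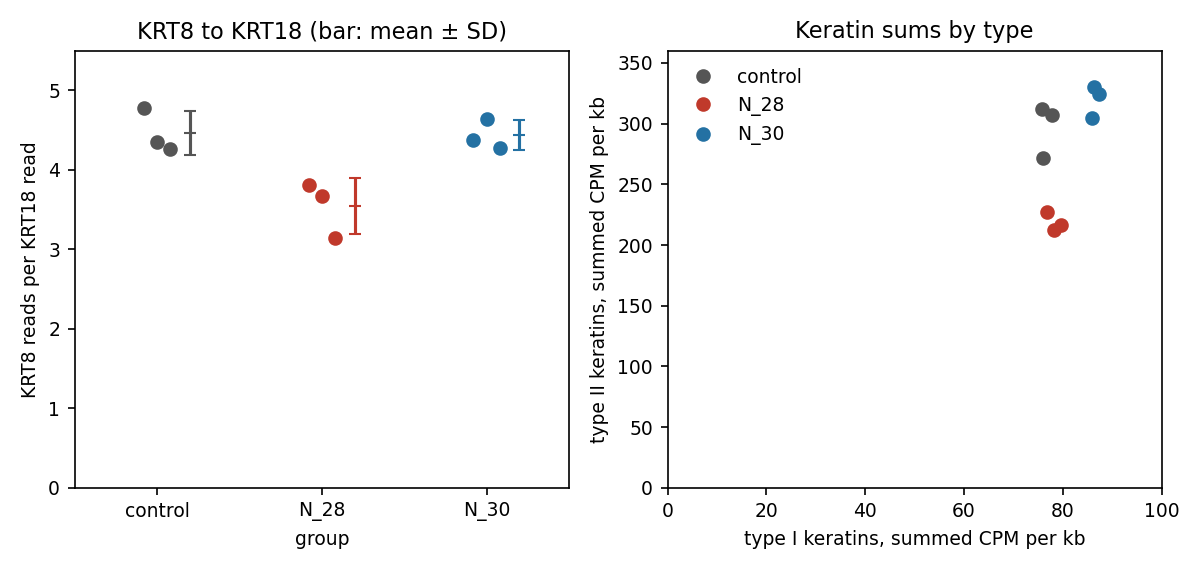
Keratin balance, with 1 point per library in control, N_28 and N_30: the left panel plots KRT8 reads per KRT18 read with the group mean ± SD as a bar, and the right panel plots the summed CPM per kilobase of type II keratins against that of type I keratins. The 3 N_28 libraries lie below all 6 others on both vertical axes, and the N_30 libraries lie furthest right.

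Sums by keratin type show the same 3 falls against the type I side, since KRT7, KRT8 and KRT80 make up nearly all of the type II sum. Summed over all type II keratins, the level per kilobase was 296.8 ± 22.1 CPM (SD, n = 3) in control, 218.6 ± 7.62 in N_28 and 319.6 ± 13.1 in N_30. The type I sum was 76.6 ± 1.14, 78.2 ± 1.43 and 86.5 ± 0.71 CPM per kilobase. Type II exceeded type I by 3.57 to 4.12 times in control, by 2.71 to 2.96 times in N_28 and by 3.55 to 3.82 times in N_30. These sums were added after the members' values were seen and carry no test. They use merged exon lengths only. Levels of single keratins depended on the length used, as given above, and so may the ratios.

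Of the 5 tested type II keratins, 4 fell in N_28 (KRT7, KRT8, KRT80 and KRT83), where 5.75% of all tested genes fell. The list median was -0.41 on the log2 scale, against a median of 0.00 over all genes, written to 3 decimals as -0.001. In N_30, 0 of the 5 were called by edgeR, by DESeq2 or with the library number as a block, and 1 (KRT8) had an unadjusted p under 0.05. Only 0.866% of all tested genes were called in N_30 by edgeR without the block, so 0 of 5 says little. The list median there was 0.22. KRT83, a hair keratin, had only 1 to 18 reads per library, and its N_28 call (log2 fold change -1.50, edgeR adjusted p = 0.0495) was lost in 11 of 13 alternatives. Of the 7 tested type I keratins, 1 rose in N_28 and the list median was 0.01. That gene was KRT20, a keratin of intestinal and urothelial epithelia, which went from 0.966 ± 0.441 CPM in control to 4.74 ± 0.738 CPM in N_28 (log2 fold change 2.28, edgeR adjusted p = 0.000115) and stood at 1.22 ± 0.231 CPM in N_30. KRT10, the type I gene with a level near that of KRT18, averaged 93.4, 93.8 and 103 CPM and was called in neither set.

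How reads were assigned bears on these genes, because the sources used here give neither the tool nor the read length nor any use of strand. KRT8 and KRT18 are neighbours on opposite strands whose annotated exons share 525 bases, 7.63% of KRT8's exon length and 16.3% of KRT18's, and reads from there cannot be told apart without strand. KRT8 has 51 annotated pseudogene rows, 16 of them with reads, and together they carried 1.95% to 3.24% of the reads of KRT8 in each library. KRT18 has 67 such rows, 19 with reads, which carried 0.285% to 0.85% of its reads. The possible sharing is wider than these read shares. Of all 50-base windows of the principal transcript, 47.6% in KRT18 and 36.9% in KRT8 also occur in other genes, mostly their pseudogenes. Of 100-base windows, 16.6% in KRT18 do, with KRT8 the only other gene. In KRT8 7.75% do, shared with KRT18 and 4 KRT8 pseudogenes. How such reads were counted was not tested. KRT7 shares 7.67% of its exon bases with the antisense gene KRT7-AS and the pseudogene KRT87P. KRT7-AS averaged 8.71 ± 0.566 CPM in control and 6.17 ± 0.143 CPM in N_28 (log2 fold change -0.50, edgeR adjusted p = 0.0641). VIM shares 24.4% of its exon bases with VIM-AS1 and ENSG00000234961. INA, NES, DSP, KRT80 and KRT19 share none.

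The keratin genes that fell in N_28 lie in the type II cluster of chromosome 12, so the genes around them were read as well, in a stretch reaching 500000 bases to either side and chosen after the falls were seen. Of 21 tested genes there that are not keratins, 1 fell in N_28 (CSAD, log2 fold change -0.47, edgeR adjusted p = 0.0446) and 1 rose (TNS2, 0.38, adjusted p = 0.00488), with a median of -0.02. Over the whole chromosome 28 of 767 genes rose and 34 fell, with the same median of -0.02. Of all tested genes 4.49% rose and 5.75% fell in N_28. KRT18, which lies at the edge of the cluster beside KRT8, was not called in N_28, as given above.

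**Figure D3:**
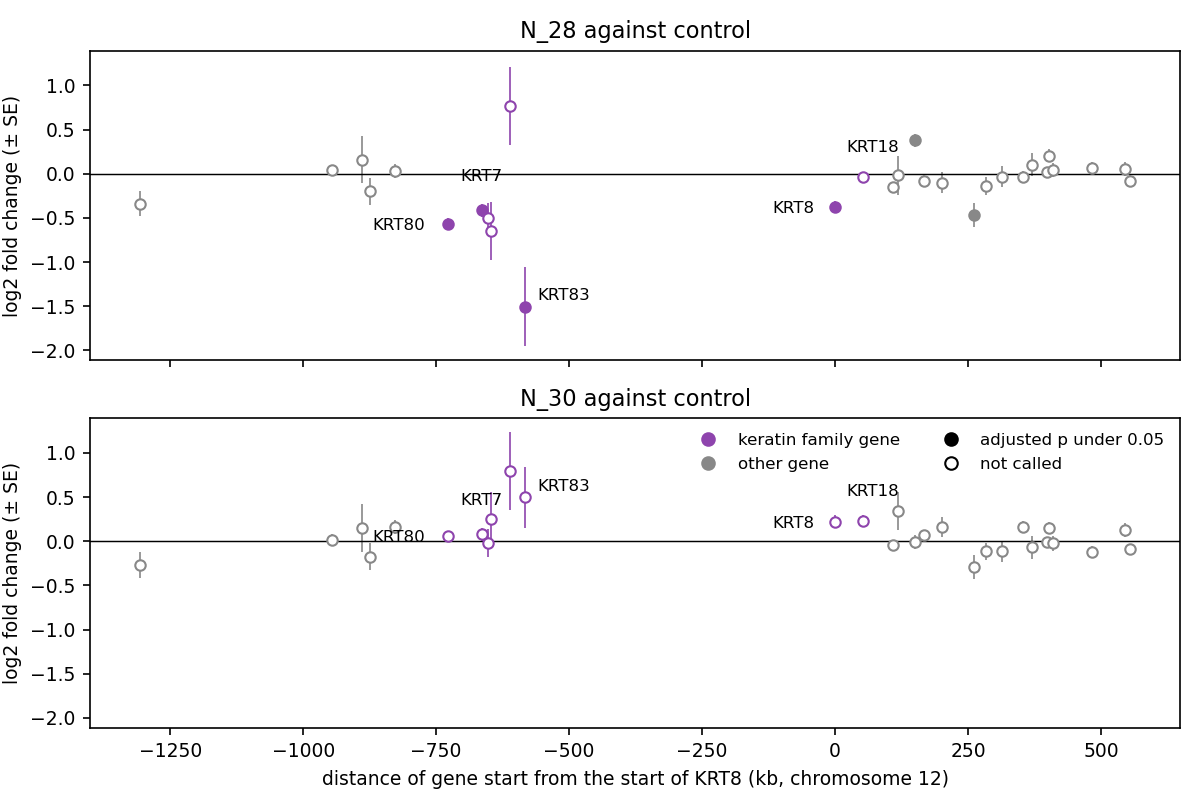
Log2 fold change (± SE) of each tested gene in the chromosome 12 stretch against its distance in kilobases from the start of KRT8, for N_28 and N_30 against control; purple marks keratin family genes, grey other genes, and filled points an adjusted p under 0.05. In N_28 the filled keratin points (KRT80, KRT7, KRT83 and KRT8) lie below 0 while the 21 other genes spread from -0.47 to 0.38, and in N_30 no point is filled.

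Vimentin was the most abundant member and differed little between groups. VIM (ENSG00000026025, chromosome 10, 17228259 to 17237593, plus strand) measured 1418, 1518 and 1544 CPM in control, 1432, 1457 and 1370.0 CPM in N_28 and 1408, 1456 and 1477 CPM in N_30. All groups overlapped. Its log2 fold change was -0.07 in N_28 (SE 0.056, edgeR adjusted p = 0.476) and -0.05 in N_30 (SE 0.056, adjusted p = 0.83). Other mesenchymal markers did move in N_28: of the 9 tested on that list, VIM included, 3 fell, CDH2, S100A4 and SPARC. Of all tested genes 5.75% fell in N_28. The summed list, which also includes VIM, was 2226 to 2252 CPM in control and 1952 to 2047 CPM in N_28.

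INA (ENSG00000148798, chromosome 10, 103277163 to 103290351, plus strand), the neuronal type IV protein, was present at 83.6, 85.2 and 64.8 CPM in control, 75.2, 72.7 and 57.8 CPM in N_28 and 84.0, 90.8 and 70.4 CPM in N_30. The groups overlapped, and library 3 was the lowest of each. In the fit without the block neither set was called against control. In N_28 the log2 fold change was -0.18 (SE 0.122, edgeR adjusted p = 0.392) and in N_30 it was 0.07 (adjusted p = 0.895). With the library number as a block the N_28 difference was called (-0.18, edgeR adjusted p = 0.0337).

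Nestin was the member that rose in N_28. NES (ENSG00000132688, chromosome 1, 156668763 to 156677397, minus strand) was at 78.2, 61.7 and 69.8 CPM in control, 85.7, 95.7 and 92.0 CPM in N_28 and 54.3, 57.1 and 64.5 CPM in N_30. The N_28 libraries lay above all others, whereas N_30 overlapped control. NES rose by 0.38 on the log2 scale in N_28 (SE 0.087, edgeR adjusted p = 0.0116), or by 30.3%, and its log2 fold change in N_30 was -0.25 (SE 0.088, adjusted p = 0.262). The N_28 call was lost without the second N_28 library (0.35, adjusted p = 0.0582) and held without any other library. Neural markers did not move the same way: 3 of 5 tested fell in N_28, namely SOX2, PAX6 and MAP2, where 5.75% of all tested genes fell. The summed neural list was 36.6 to 43.1 CPM in control and 24.95 to 26.1 CPM in N_28. NEFL, NEFM, ELAVL4 and DCX had no read in any library. The part of these markers in the change of NES was not tested.

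Over the 10 type III and IV genes, 5 were tested. NES was the only one called in N_28 in the fit without the block, with a list median of -0.07, and INA was called as well with the block. In N_30 against control 0 of the 5 were called by edgeR, by DESeq2 or with the block. Of all tested genes 0.866% were called in N_30 by edgeR without the block. NES alone had an unadjusted p under 0.05 there, and it was called when no filter on low counts was used (-0.26, adjusted p = 0.035). SYNM, a type IV protein that links filaments to membrane complexes, averaged 31.9 CPM in control and 28.6 CPM in N_28 (log2 fold change -0.15, adjusted p = 0.178). GFAP, the astrocyte filament protein, was at 2.17 CPM in control and was not called.

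Desmoplakin was the member that fell in N_30. DSP (ENSG00000096696, chromosome 6, 7541575 to 7586717, plus strand) was at 27.9, 23.1 and 25.3 CPM in control, 26.5, 26.7 and 23.1 CPM in N_28 and 18.7, 18.1 and 15.5 CPM in N_30. All N_30 libraries lay below all others, and N_28 overlapped control. It fell by 0.55 on the log2 scale in N_30 (SE 0.101, edgeR adjusted p = 0.0183), and its level fell by 31.7%, and its log2 fold change in N_28 was 0.00, written to 4 decimals as -0.0023 (SE 0.098, adjusted p = 0.992). DSP was the 1 of 8 tested members called in N_30 in the fit without the block, where 0.866% of all tested genes were called (0.406% lower). With the library number as a block 2 members were called in N_30, DSP and KRT18, among 424 genes called. The call was lost without the first control library (-0.48, adjusted p = 0.0693), the third control library (-0.55, adjusted p = 0.0575) or the second N_30 library (-0.58, adjusted p = 0.0671).

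The promoters of NES and DSP, the members outside the keratins that changed against control, are shown with that of VIM, which was called in neither set. They come from the 250 bases before each RefSeq start (GRCh38.p14), read 5′ to 3′ on the gene's strand. GENCODE places the start of DSP upstream of the RefSeq start, so the last 96 bases of its window, which lie inside the GENCODE gene, are left out and 154 are shown. NES lies at chr1:156677408-156677657 on the minus strand, DSP at chr6:7541421-7541574 on the plus strand and VIM at chr10:17227991-17228240 on the plus strand. Capitals mark the GC box, GGGCGG or its reverse complement CCGCCC, with overlapping matches counted apart.
NES: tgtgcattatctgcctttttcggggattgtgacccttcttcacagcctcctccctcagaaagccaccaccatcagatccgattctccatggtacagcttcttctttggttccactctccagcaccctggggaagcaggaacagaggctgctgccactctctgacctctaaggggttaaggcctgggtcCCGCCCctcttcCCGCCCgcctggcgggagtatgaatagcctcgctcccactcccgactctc
DSP: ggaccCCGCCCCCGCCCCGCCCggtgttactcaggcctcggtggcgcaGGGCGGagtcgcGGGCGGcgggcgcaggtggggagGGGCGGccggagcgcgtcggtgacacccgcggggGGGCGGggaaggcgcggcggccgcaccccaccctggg
VIM: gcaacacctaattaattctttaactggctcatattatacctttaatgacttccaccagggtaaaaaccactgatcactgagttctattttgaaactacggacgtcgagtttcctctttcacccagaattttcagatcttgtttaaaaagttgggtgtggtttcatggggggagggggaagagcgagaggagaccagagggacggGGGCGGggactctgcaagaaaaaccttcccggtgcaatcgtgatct
NES holds 2 boxes, both in the reverse orientation, DSP holds 7, and VIM holds 1, which begins 46 bases before the RefSeq start. Of 35116 RefSeq windows of 250 bases, 42.6% hold at least 1 box and 13.9% hold 3 or more. The table matched 5 of the 9 members. INA, also among them, has 4 boxes, and the window of KRT8 is not read because it lies inside the GENCODE gene. These are matches of letters, not binding sites.

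Desmoplakin's change was set beside the rest of the desmosome, the junction that anchors keratin filaments. Of 15 desmosome genes 10 were tested, and DSP was the only one called in N_30 in the fit without the block (list median 0.05). PKP1, a plakophilin that binds keratins and desmoplakin, averaged 39.4 CPM in control and 58.4 CPM in N_30 and missed the threshold (log2 fold change 0.57, edgeR adjusted p = 0.0509). With the library number as a block 3 of the 10 were called in N_30, DSP, PKP1 (0.57, adjusted p = 0.000107) and DSC2, a desmocollin (-0.31, adjusted p = 0.0358), and DESeq2 called 2, DSP and PKP1. Over all genes, calls in N_30 were 130 in edgeR without the block, 424 with it and 267 with DESeq2. In N_28, where 10.2% of all tested genes were called, the 1 gene called was DSG2, the desmoglein of simple epithelia. It went from 217 ± 11.8 CPM in control to 153 ± 4.55 CPM (log2 fold change -0.50, edgeR adjusted p = 0.000217) and kept its call in all 14 alternatives run. DSG2 stood at 223 ± 16.3 CPM in N_30. PERP, JUP and DSC3, with control means of 271, 109 and 89.0 CPM, were called in no comparison.

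**Figure D4:**
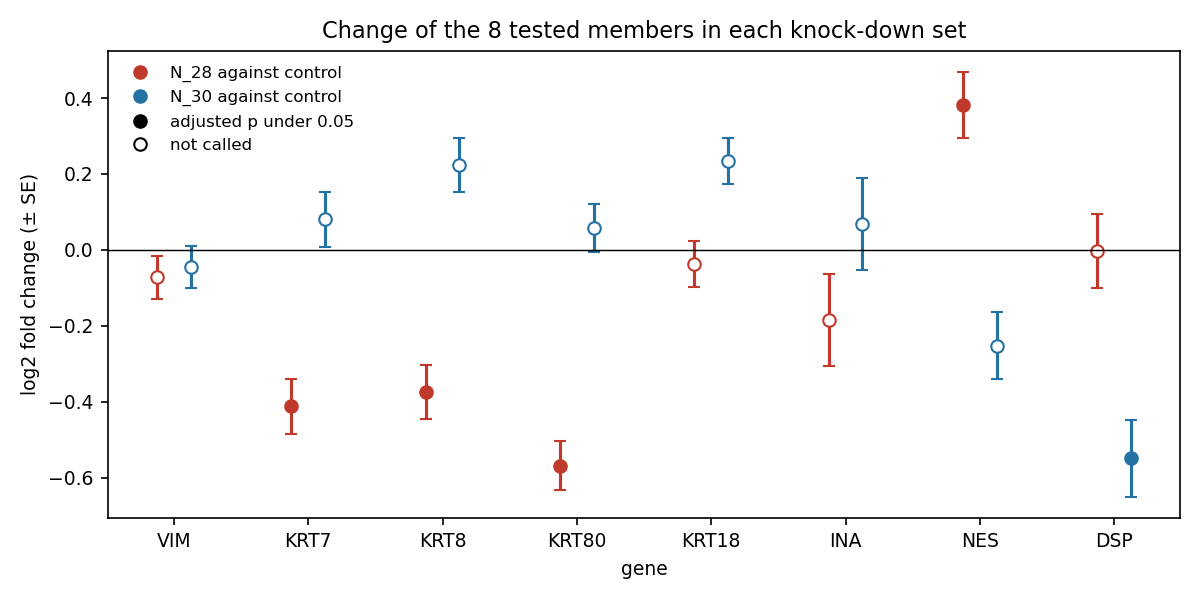
Log2 fold change (± SE) of the 8 tested members in N_28 (red) and N_30 (blue) against control, with filled points where the adjusted p was under 0.05. Filled points in N_28 are KRT7, KRT8 and KRT80 below 0 and NES above it, and the only filled point in N_30 is DSP.

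Plakins and hemidesmosome proteins join filaments to one another and to the cell base. Of 9 tested genes of this list 2 rose in N_28 and none fell (list median 0.05), where 4.49% of all tested genes rose and 5.75% fell. ITGA6, the integrin chain of hemidesmosomes, went from 168 ± 2.68 CPM to 216 ± 8.20 CPM (log2 fold change 0.36, edgeR adjusted p = 0.000973). Its partner ITGB4 went from 103 ± 28.5 to 158 ± 21.3 CPM (0.61, adjusted p = 0.0383), a call lost in 6 of 14 alternatives. PLEC, the linker protein plectin, was the most highly counted of the list, with 2584 CPM in control and 2804 CPM in N_28, and was not called.

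Lamins, the filaments of the nucleus, were listed with the beaded filament proteins. Of 4 tested genes of this list 1 was called in N_28, where 10.2% of all tested genes were called. LMNA rose from 876 ± 59.9 to 1083 ± 41.8 CPM (log2 fold change 0.31, edgeR adjusted p = 0.0416), a call lost in 7 of 14 alternatives. LMNB1, LMNB2 and BFSP1, a beaded filament protein, were not called. Of the 9 partner and assembly genes, 1 rose in N_28 and 1 fell. HSPB1, a small heat shock protein that binds filaments, went from 333 to 406 CPM (0.28, adjusted p = 0.0112), a call lost without the first N_28 library (0.24, adjusted p = 0.0707). SYNC, a filament-associated protein, went from 3.95 to 2.77 CPM (-0.51, adjusted p = 0.0372), which was lost in 9 of 13 alternatives. With the library number as a block 4 of the 9 were called, these 2 with TRIM2 (-0.47, adjusted p = 0.0019) and KLHL24 (-0.39, adjusted p = 0.0451), and DESeq2 called HSPB1 and TRIM2. Over all genes, calls in N_28 were 1538 in edgeR without the block, 2301 with it and 1608 with DESeq2. In N_30 against control 0 of 9 plakin and hemidesmosome genes, 0 of 4 lamin list genes and 0 of 9 partner genes were called. This held in edgeR, in DESeq2 and with the block. The share of all tested genes called in N_30 by edgeR without the block was 0.866%. Counts of 0 in lists this short thus say little about these genes. The genes with an unadjusted p under 0.05 were 2 of the first list (DST and ITGA6), 0 of the second and 1 of the third (SYNC).

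Against the mean of both sets, 1 of 8 tested members was called, where 1.78% of all tested genes were called (0.533% higher and 1.25% lower). It was KRT80 (log2 fold change -0.26, edgeR adjusted p = 0.0294), whose value in this comparison averages its fall in N_28 with its value in N_30. The call was lost without control library 1 or 3, N_28 library 1 or 3, or N_30 library 2, with adjusted p-values from 0.0502 to 0.135. Both sets were compared with the same 3 control libraries.

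The sets differed from each other in 6 of 8 tested members, where 18.3% of all tested genes were called (9.38% higher and 8.96% lower in N_30). Higher in N_30 than in N_28 were KRT80 (log2 difference 0.63, SE 0.064, edgeR adjusted p = 1.57e-05), KRT8 (0.60, SE 0.070, adjusted p = 5.54e-05), KRT7 (0.49, SE 0.073, adjusted p = 0.000386) and KRT18 (0.27, SE 0.061, adjusted p = 0.00692). Lower in N_30 were NES (-0.63, SE 0.088, adjusted p = 0.000209) and DSP (-0.55, SE 0.101, adjusted p = 0.00192). VIM (0.03, adjusted p = 0.784) and INA (0.25, adjusted p = 0.173) did not pass. The 6 calls were kept in all 14 alternatives run for each. For KRT7, KRT8, KRT80 and NES the difference came with a called change in N_28 against control, and for DSP with one in N_30. In N_30, KRT7 (0.08), KRT8 (0.22), KRT80 (0.06) and NES (-0.25) lay on the other side of control, with no call in the fit without the block. KRT18 was called against control in neither set in that fit (-0.04 in N_28 and 0.23 in N_30).

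**Figure D5:**
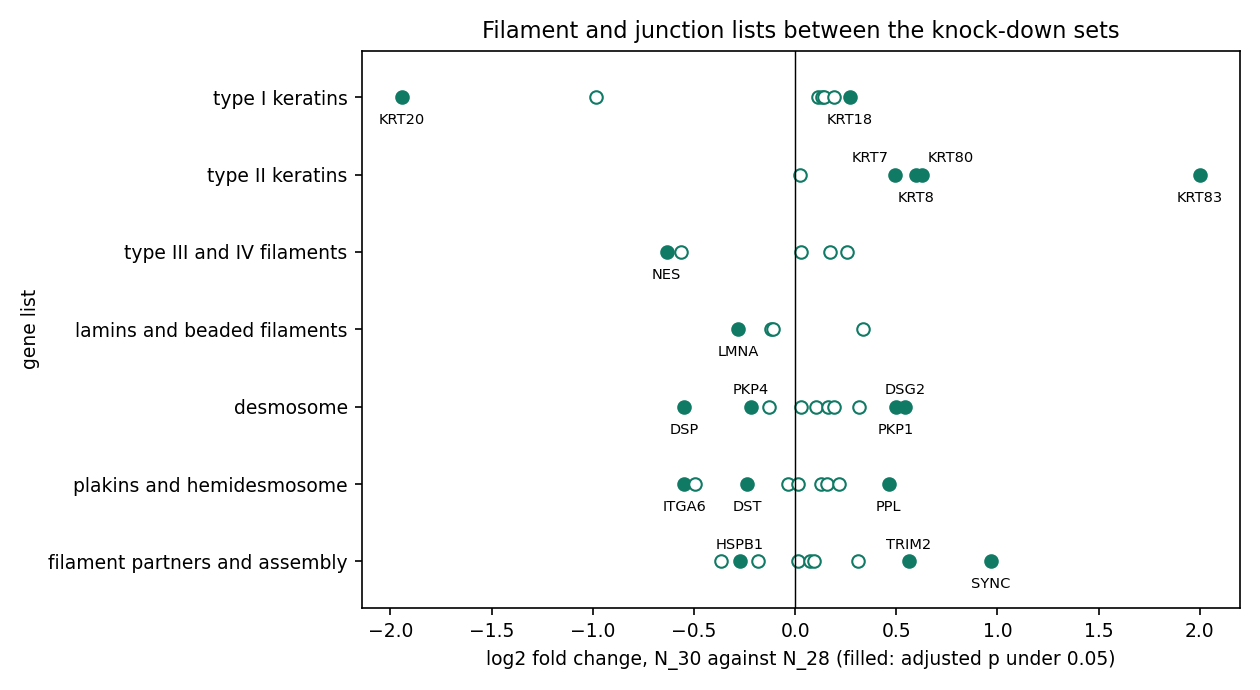
Log2 difference of N_30 against N_28 for each tested gene of 7 lists of filament, junction and partner genes, 1 point per gene, filled where the adjusted p was under 0.05 and named. Among type II keratins 4 of 5 points are filled and lie right of 0, whereas the filled points of the desmosome list lie on both sides.

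Other genes of the lists differed between the sets as well. DSG2 was higher in N_30 (log2 difference 0.54, edgeR adjusted p = 6.44e-05) and ITGA6 was lower (-0.55, adjusted p = 1.92e-05). KRT20 was lower in N_30 (-1.94, adjusted p = 0.000189). PPL, periplakin, which binds keratins, was higher (0.46, adjusted p = 0.0122), and DST, the plakin of hemidesmosomes, was lower (-0.24, adjusted p = 0.0229). The type II keratin list had a median of 0.60, the type I list 0.13 and all genes tested 0.00, written to 3 decimals as 0.002.

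For each member called against control, the genes whose pattern over the 9 libraries came nearest were sought among the 10681 genes that averaged 5 CPM or more, by the root mean square difference of centred log2 CPM. Nearest to KRT7 were H2AJ (0.051) and OSGIN2 (0.058), and the median over all these genes was 0.256. KRT8 had OPN3 (0.072) and ZBTB47 (0.073), and KRT80 had RNF121 (0.059) and LPCAT1 (0.059). NES had TGFBR3 (0.073) and RIN3 (0.083). DSP was matched less closely, by ACVR2B (0.096) and KSR2 (0.112). No other member of the set was among these nearest genes.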

How the data were processed

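RNA was sequenced from 9 libraries of cells labelled Huh7, in 3 groups of 3. The authors deposited 1 table of read counts per gene, raw whole numbers under human Ensembl identifiers. A mouse build, mm8, is named in the submitters' processing notes, at odds with those identifiers. The aligner and the counter are not stated. Symbols came from a gene name table and GENCODE release 29.

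Counts were fitted in edgeR 4.0.16 (R 4.3.3) by quasi-likelihood with TMM scaling, over all 9 libraries with a term per group, after its expression filter at a minimum count of 10. P-values were adjusted by the Benjamini-Hochberg method over 15019 genes and called under 0.05. SE is the size of the log2 fold change over the square root of F. CPM uses TMM-scaled library sizes. The fit was tested on simulated data. Precision is limited by 3 libraries a group, and the limit of 3 counts covers counting error only. Chi-square per gene between replicates was 3.64 to 12.7, so none was taken as a copy.

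Members and lists were chosen with earlier results of these data known. Named were all members, from each family list up to 6 called genes by lowest adjusted p between the sets and up to 3 highest genes called in none, other keratins of at least 1 CPM, and the 2 genes most like each called member. TNS2, CSAD, DSC2, KLHL24 and the markers that changed in N_28 were named after their values were seen. Same-numbered libraries of control and N_30 deviated together (correlations 0.122, 0.169 and 0.306) and were read as paired, from the data and not the labels. Pairs with N_28 ran from -0.0588 to 0.235. The highest of these, number 3 of N_30 and N_28, was above the 0.122 and 0.169 of control and N_30. The main fit did not use any pairing. Alternatives were DESeq2 1.42.0, other scalings and filters, a stricter threshold, only the groups compared, a replicate block and leaving out each library. Neighbouring genes, keratin sums, read assignment and transcript length were added after seeing the data.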

Additional observations from a re-analysis of the deposited data

Results flagged for a closer look

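The genes below had different effects in the 2 knock-down sets by the edgeR test of N_30 against N_28, and each value is the log2 difference of N_30 from N_28. Among members these were KRT80 (0.63), KRT8 (0.60), KRT7 (0.49), KRT18 (0.27), DSP (-0.55) and NES (-0.63). Other keratins were KRT83 (2.0005, on 1 to 18 reads per library) and KRT20 (-1.94). Of the junction and plakin genes, DSG2 (0.54), PKP1 (0.50) and PPL (0.46) were higher in N_30, and ITGA6 (-0.55), DST (-0.24) and PKP4 (-0.22) were lower. Of the lamins and partner genes, SYNC (0.97) and TRIM2 (0.56) were higher, and LMNA (-0.28) and HSPB1 (-0.27) were lower. TRIM2, a ubiquitin ligase that acts on neurofilament light chain, averaged 16.4 CPM in control, 11.9 CPM in N_28 and 17.6 CPM in N_30. Calls for PKP4 were lost in 7 of 14 alternatives, for LMNA in 6, for PKP1 in 5 for DST and TRIM2 in 4 each, for PPL in 2 and for HSPB1 in 1.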

How the results depend on the processing

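The number of members called in N_28 was 4, from 3 to 4 with 1 library left out and 5 with the replicate block. It was 3 when the adjusted p had to be under 0.01, where the call of NES (edgeR adjusted p = 0.0116) was lost. Between the sets the number was 6, also under 0.01 and with any 1 library left out. There it was 7 with the block and 7 with no filter on low counts. In N_30 against control it was 1, 2 with no filter on low counts, 2 with the replicate block, 0 when the adjusted p had to be under 0.01, and 0 to 1 with 1 library left out. For the mean of both sets it was 1, and again 2, 2, 0 and 0 to 1. Calls over all genes moved too. With the block they went from 1538 to 2301 in N_28 and from 2755 to 3673 between the sets. In N_30 they went from 130 to 424 with the block, and for the mean of both sets from 268 to 616. With no filter they were 523 in N_30, 705 for the mean and 3081 between the sets. Under 0.01 they were 47 in N_30, 96 for the mean, 794 in N_28 and 1432 between the sets. With the replicate block INA was called in N_28 (-0.18, adjusted p = 0.0337) and between the sets (0.26, adjusted p = 0.00271). The numbers were not read as pairing N_28 with the other groups, though library 3 had the lowest INA of each group. DSP was called with the block in the mean of both sets (-0.28, adjusted p = 0.0383). Besides KRT18 in N_30, the block changed no other call of a member. Directions reversed only for values that were not called, with 1 library left out: DSP in N_28 (-0.0688 to 0.0690, with 0.0639 in between), KRT18 in N_28 (-0.0735 to 0.0007), INA in N_30 (-0.0474 and -0.0141, up to 0.17), INA and NES in the mean of both sets (-0.1741 to 0.0098 and -0.0190 to 0.1531), and the log2 ratio of KRT8 to KRT18 in N_30 (-0.0421 to 0.0425). In N_28 that ratio ranged from -0.39 to -0.25 and between the sets from 0.25 to 0.38. The cause was not tested. KRT19 had 1 to 5 reads and KRT83 1 to 18 reads per library, which limits what their values can show.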
